A study of Rattus norvegicus with 12 samples.

Results

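Endothelial markers and angiogenic factors were followed in cultured neonatal rat heart cells exposed to the plasticizer DEHP, di(2-ethylhexyl) phthalate. The set was a list of 36 genes, and a gene counted as measured where the array annotation gave a probe set with its symbol and no other. Of the 36 genes, 29 were measured, each by 1 probe set, among 14324 genes measured in this way in all. They comprised 20 of 26 listed pan-endothelial genes, meaning all that were neither lymphatic nor ligands, 3 of 4 lymphatic genes and 6 of 6 ligands. Pecam1, Kdr, Vwf, Eng, Ecscr and Mmrn2 of the first kind and Mmrn1 of the second had no such probe set and were not analysed here. Cells were isolated by enzymatic digestion from hearts of 2-day-old Sprague-Dawley pups of 1 litter, plated on coated coverslips and cultured for 3 days. The DEHP group, 6 cultures, then received 50 µg/mL DEHP in 0.1% DMSO for 3 days. The control group, 6 cultures, received 0.1% DMSO for the same 3 days, so both groups carried the solvent. Each culture gave 1 Affymetrix array of total RNA, and the replicates are described as biological, so the tests below measure the spread between cultures of a single litter.

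Endothelial cells line blood and lymphatic vessels. They are held together by junction proteins such as VE-cadherin and are kept in their state by ETS and SOX family transcription factors. Their growth and survival depend on secreted ligands, chiefly the vascular endothelial growth factors (VEGFs), the angiopoietins and apelin, which act on receptors that the endothelium itself makes. In the heart, muscle cells are a main source of VEGF-A and VEGF-B for the capillaries between them. Cultures of neonatal cardiomyocytes usually keep some endothelial cells and other non-muscle cells.

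Each value is a linear ratio of an array to the median of that probe set over the 12 arrays, and is given here as its log2. The values carry differences between arrays but not levels, so it could not be checked whether a marker was present or absent, and no gene was ranked against another by abundance. For the same reason the labelled cell type could be followed by changes in its markers alone. In RNA from a whole culture, fewer cells of a type and less RNA per cell cannot be told apart. DEHP replicate 6 and control replicate 5 stood apart from the other arrays, with a standard deviation of all log2 ratios of 0.267 and 0.369 against 0.149 to 0.188. The counts of the list and the folds of some genes are therefore given both with and without DEHP replicate 6. Fits without each other array, control replicate 5 included, are among the alternatives described at the end.

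Under DEHP most of the endothelial genes that changed were higher, by 1.4 to 1.7 fold, while the ligands and their receptors split. Of the 29 measured genes, 13 rose, 3 fell and 13 did not pass an adjusted p under 0.05 (limma, Benjamini-Hochberg over all 27342 probe sets, n = 6 per group). Over the 15097 probe sets with 1 gene symbol, 14.3% were called higher and 10.1% lower in the same fit. Without DEHP replicate 6, 15 genes were higher, 4 were lower and 10 did not pass, beside 13.8% and 9.71% of those probe sets. The median log2 fold of the 29 genes was 0.30 with all arrays and 0.36 without that array, and that of the named probe sets was −0.016 and −0.014. In 7 genes the 6 DEHP values all lay above the 6 control values and in 2 they all lay below, where 9.97% and 6.8% of the named probe sets did so. The list was put together with earlier results of these arrays known, and these counts are a description of it.

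**Figure D1:**
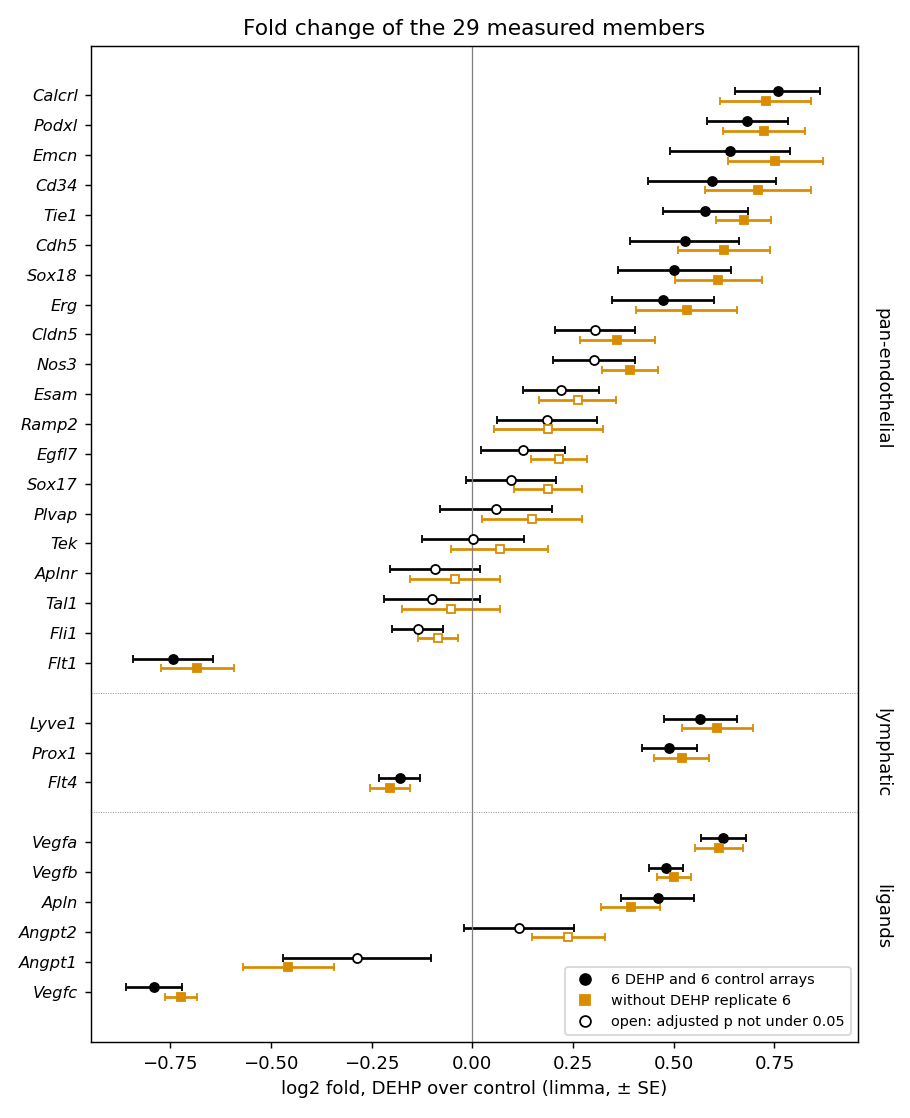
Log2 fold of DEHP over control with its SE from limma for the 29 measured genes, in pan-endothelial, lymphatic and ligand blocks, with all 12 arrays (circles) and without DEHP replicate 6 (squares); open symbols did not pass an adjusted p under 0.05. In the pan-endothelial block Flt1 is alone far to the left at −0.74, and among the ligands Vegfa (0.62) and Vegfc (−0.79) lie at opposite ends.

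The 6 ligands differed among themselves. Vegfa, which encodes the main growth factor of blood vessel endothelium, had log2 ratios from 0.22 to 0.33 with a median of 0.27 in DEHP cultures, against −0.57 to −0.22 with a median of −0.34 in controls. Every DEHP array was thus above every control array, and control replicate 5 was the lowest of all. Vegfa was 1.54-fold higher (log2 fold 0.62 ± 0.06 SE, limma adjusted p = 5e-06).

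Vegfb, a relative of VEGF-A that binds Flt1 and is made abundantly by heart muscle, rose in the same way. Its log2 ratios ran from 0.14 to 0.33 with a median of 0.27 in DEHP cultures, and from −0.29 to −0.14 with a median of −0.24 in controls. The groups did not overlap, and the log2 fold was 0.48 ± 0.04 (1.40-fold higher, limma adjusted p = 4.64e-06).

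Vegfc, the ligand that drives growth of lymphatic vessels through the receptor Flt4, went the other way. Its log2 ratios lay between −0.75 and −0.28 with a median of −0.36 in DEHP cultures, and between 0.28 and 0.44 with a median of 0.39 in controls. The log2 fold was −0.79 ± 0.07, or 1.73-fold lower (limma adjusted p = 4.87e-06), and it was the largest fall among the 29 genes. The value of −0.75 belonged to DEHP replicate 6; the other 5 DEHP arrays lay between −0.42 and −0.28, and without replicate 6 the log2 fold was −0.72 ± 0.04.

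Apln encodes apelin, the peptide ligand of Aplnr. It had log2 ratios from 0.02 to 0.59 with a median of 0.25 in DEHP cultures, against −0.41 to −0.02 with a median of −0.21 in controls. The groups were separate but close, and the highest value was again that of DEHP replicate 6. The log2 fold was 0.46 ± 0.09 with all arrays (limma adjusted p = 0.00284) and 0.39 ± 0.07 without replicate 6 (adjusted p = 0.0024).

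The angiopoietins did not pass with all arrays. Angpt1 encodes the agonist of the receptor Tek and Angpt2 a context-dependent antagonist. Angpt1 had log2 ratios from −0.32 to 0.83 with a median of −0.14 in DEHP cultures, and from −0.03 to 0.63 with a median of 0.25 in controls. The 0.83 was DEHP replicate 6, and the other 5 DEHP arrays, at −0.32 to −0.08, all lay below the 6 controls. The log2 fold was −0.29 ± 0.18 with all arrays (limma adjusted p = 0.35) and −0.46 ± 0.11 without replicate 6 (adjusted p = 0.0135). Angpt2 was at 0.12 ± 0.14 and 0.24 ± 0.09 in the same fits, with an adjusted p of 0.62 and 0.0993.

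**Figure D2:**
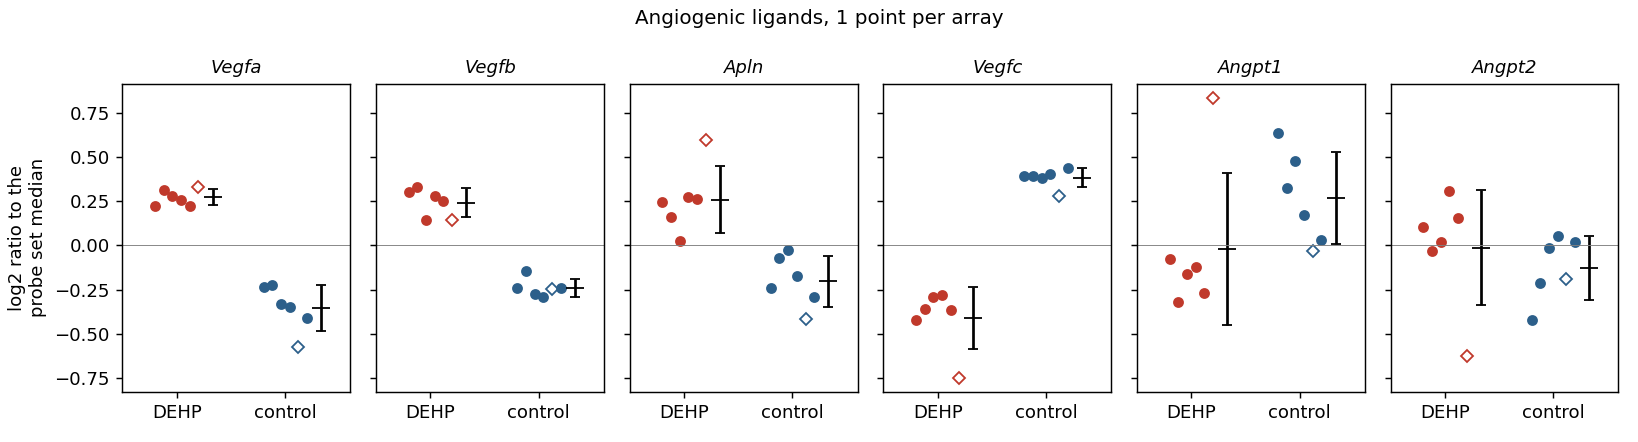
Log2 ratio to the probe set median for the 6 ligands, 1 point per array, with DEHP left of control and bars for the mean and SD of each group (n = 6); the open diamonds are DEHP replicate 6 and control replicate 5. Vegfa, Vegfb and Apln lie higher under DEHP and Vegfc lower with no overlap, whereas DEHP replicate 6 stands at 0.83 for Angpt1 and −0.63 for Angpt2, away from the other DEHP arrays.

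The sequences before the starts of the 3 VEGF genes are shown because these ligands moved in opposite directions. They are the 250 bases upstream of the RefSeq gene start in GRCr8, written in the direction of the gene: Vegfa at chr9:22452604-22452853 on the plus strand, Vegfb at chr1:213607153-213607402 on the minus strand and Vegfc at chr16:44560888-44561137 on the minus strand. For Vegfa, which has 2 starts in the table, the upstream one was taken. Capitals mark GGGCGG on either strand, the core of the GC box bound by Sp and Kruppel-like factors.
Vegfa: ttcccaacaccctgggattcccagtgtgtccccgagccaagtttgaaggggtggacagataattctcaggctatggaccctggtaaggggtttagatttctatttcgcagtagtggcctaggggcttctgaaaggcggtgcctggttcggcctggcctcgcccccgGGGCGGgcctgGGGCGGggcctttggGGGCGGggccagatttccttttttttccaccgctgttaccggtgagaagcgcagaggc
Vegfb: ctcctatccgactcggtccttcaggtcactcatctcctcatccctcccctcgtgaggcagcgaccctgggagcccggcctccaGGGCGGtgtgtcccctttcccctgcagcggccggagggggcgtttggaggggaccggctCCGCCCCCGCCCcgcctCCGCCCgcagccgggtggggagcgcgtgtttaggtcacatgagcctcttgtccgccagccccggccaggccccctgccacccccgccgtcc
Vegfc: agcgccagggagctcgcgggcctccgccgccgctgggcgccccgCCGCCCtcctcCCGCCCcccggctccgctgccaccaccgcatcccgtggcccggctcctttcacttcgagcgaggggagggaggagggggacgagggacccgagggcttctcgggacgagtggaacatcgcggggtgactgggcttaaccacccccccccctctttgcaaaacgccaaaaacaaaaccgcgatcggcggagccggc
The motif occurred 3 times before Vegfa, 4 times before Vegfb and 2 times before Vegfc, so the windows of both rising genes and of the falling one held it. Windows were at hand for 18 of the 29 genes, and 13 of these held GGGCGG, as did 30.5% of all 33469 promoter windows of the table. The 13 were 6 of the 10 that rose, 3 of the 3 that fell and 4 of the 5 that did not pass. The hypoxia response cores ACGTG and GCGTG were in 1 and 4 of the 18 windows, beside 16.6% and 25.9% of all windows, and the nuclear receptor core AGGTCA was in those of Emcn and Vegfb, beside 14.1% of all. No window of the 18 held the DR1 repeat that PPAR-RXR pairs bind, in its strict form, which 0.0508% of all windows held. Both strands were searched for each motif, and matches are letters in these windows and not evidence of binding. Only 250 bases were searched, so a missing match says nothing about sites farther from the start. At so low a share, the DR1 repeat could hardly be met in 18 windows.

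Among the receptors Tie1 and Calcrl rose, Flt1 fell and Tek, Ramp2 and Aplnr did not pass. Tie1, an orphan receptor that modulates angiopoietin signalling through Tek, had log2 ratios from −0.03 to 0.70 with a median of 0.48 in DEHP cultures, against −0.33 to 0.03 with a median of −0.13 in controls. DEHP replicate 6 alone lay within the range of the controls, and the other 5 DEHP arrays were at 0.42 to 0.70. The log2 fold was 0.58 ± 0.11 (limma adjusted p = 0.00166), and 0.67 ± 0.07 without that array (adjusted p = 1.96e-05).

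Calcrl encodes the receptor that, with the accessory protein Ramp2, binds adrenomedullin. Its log2 ratios were 0.17 to 0.42 with a median of 0.26 in DEHP cultures, and −0.96 to −0.17 with a median of −0.46 in controls. The groups did not overlap, and DEHP replicate 6 was the highest DEHP array for this gene. At 1.69-fold (log2 fold 0.76 ± 0.11, limma adjusted p = 0.00023) it was the largest rise of the 29 genes. The control value of −0.96 was that of replicate 5. Ramp2 itself was at 0.19 ± 0.12 (adjusted p = 0.37).

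Flt1 encodes a VEGF receptor that binds VEGF-A and VEGF-B and, in its soluble form, holds VEGF-A away from other receptors. It had log2 ratios from −0.64 to −0.15 with a median of −0.31 in DEHP cultures, against 0.15 to 0.64 with a median of 0.45 in controls. Flt1 was 1.67-fold lower (log2 fold −0.74 ± 0.10, limma adjusted p = 0.000156) and its groups did not overlap. Its ligand genes Vegfa and Vegfb were thus higher on the same arrays on which this receptor was lower. The probe set does not tell the soluble form from the membrane form.

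Tek, the angiopoietin receptor, was at 0.00 ± 0.13 (limma adjusted p = 0.996), with log2 ratios of −0.42 to 0.25 in DEHP cultures and −0.52 to 0.10 in controls. Aplnr, the apelin receptor, was at −0.09 ± 0.11 (adjusted p = 0.63). Its highest value of all, 0.59, was that of control replicate 5, and without that array the log2 fold was 0.0098. Apln rose while its receptor gene did not pass, and the difference between them was not tested.

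Of 7 junction and surface genes, 4 rose and 3 did not pass, beside 14.3% higher and 10.1% lower over all named probe sets. Podxl encodes podocalyxin, a sialomucin of the luminal surface that mesothelial cells and podocytes also make. Its log2 ratios were 0.09 to 0.49 with a median of 0.28 in DEHP cultures, and −0.66 to −0.09 with a median of −0.34 in controls. It was the only one of the 7 whose groups did not overlap. In 9.97% of the named probe sets all DEHP values likewise lay above all control values. The log2 fold of Podxl was 0.68 ± 0.10 (limma adjusted p = 0.000338).

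Emcn, the sialomucin endomucin of capillaries and veins, had log2 ratios of −0.11 to 0.81 with a median of 0.50 in DEHP cultures and −0.64 to 0.00 with a median of −0.06 in controls. Cd34, a surface sialomucin of capillary endothelium that blood progenitors and some fibroblasts share, ran from −0.21 to 0.63 with a median of 0.43 in DEHP cultures and from −0.78 to 0.05 with a median of −0.17 in controls. Cdh5, which encodes VE-cadherin, ran from −0.18 to 0.58 with a median of 0.36 in DEHP cultures and from −0.49 to 0.11 with a median of −0.22 in controls. In all 3 genes the lowest DEHP value, the one inside the control range, was that of replicate 6, although for Cdh5 the lowest of the other DEHP arrays, at 0.15, came close to the highest control. The log2 folds were 0.64 ± 0.15 for Emcn, 0.59 ± 0.16 for Cd34 and 0.53 ± 0.14 for Cdh5, with limma adjusted p of 0.00836, 0.0191 and 0.0155. Without replicate 6 they were 0.75 ± 0.12, 0.71 ± 0.13 and 0.62 ± 0.11, with adjusted p of 0.000712, 0.00221 and 0.00198.

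Cldn5, the tight junction protein claudin-5, was at 0.30 ± 0.10 and just missed the threshold (limma adjusted p = 0.0517), and without DEHP replicate 6 it passed at 0.36 ± 0.09 (adjusted p = 0.0187). Nos3, the endothelial nitric oxide synthase, did likewise, at 0.30 ± 0.10 with all arrays (adjusted p = 0.0585) and 0.39 ± 0.07 without that array (adjusted p = 0.00155). Cldn5 also passed without control replicate 5 (adjusted p = 0.0469) and Nos3 without control replicate 4 (adjusted p = 0.045). Esam, an adhesion molecule of endothelial tight junctions, was at 0.22 ± 0.09 (adjusted p = 0.14). Egfl7, a secreted protein that endothelium lays into the vessel wall matrix, was at 0.13 ± 0.10 (adjusted p = 0.47). Plvap, which forms the diaphragms of fenestrae and caveolae, was at 0.06 ± 0.14 (adjusted p = 0.81), and its values ran over nearly the same span in both groups, from −0.45 to 0.33 in DEHP cultures and from −0.46 to 0.35 in controls.

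Of 5 transcription factors, 2 rose and 3 did not pass, beside 14.3% higher and 10.1% lower over all named probe sets. Sox18, a SOX factor of developing vessels, had log2 ratios of −0.27 to 0.53 with a median of 0.34 in DEHP cultures and −0.60 to 0.00 with a median of −0.18 in controls. Its log2 fold of 0.50 ± 0.14 passed (limma adjusted p = 0.0239), but not without control replicate 2 or without DEHP replicate 1, 4 or 5, where the adjusted p was 0.0521, 0.0564, 0.0585 and 0.0501. Without DEHP replicate 6 the log2 fold of Sox18 was 0.61 ± 0.11 (limma adjusted p = 0.00167). Erg, the ETS factor that maintains endothelial identity, ran from −0.08 to 0.49 with a median of 0.21 in DEHP cultures and from −0.68 to 0.05 with a median of −0.26 in controls, with a log2 fold of 0.47 ± 0.13 (adjusted p = 0.0193). The related ETS factor Fli1, which blood cells also express, was at −0.14 ± 0.06 (adjusted p = 0.185). Sox17, a factor of arterial endothelium, was at 0.10 ± 0.11 (adjusted p = 0.62), and Tal1, a factor of blood and endothelial progenitors, at −0.10 ± 0.12 (adjusted p = 0.62).

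**Figure D3:**
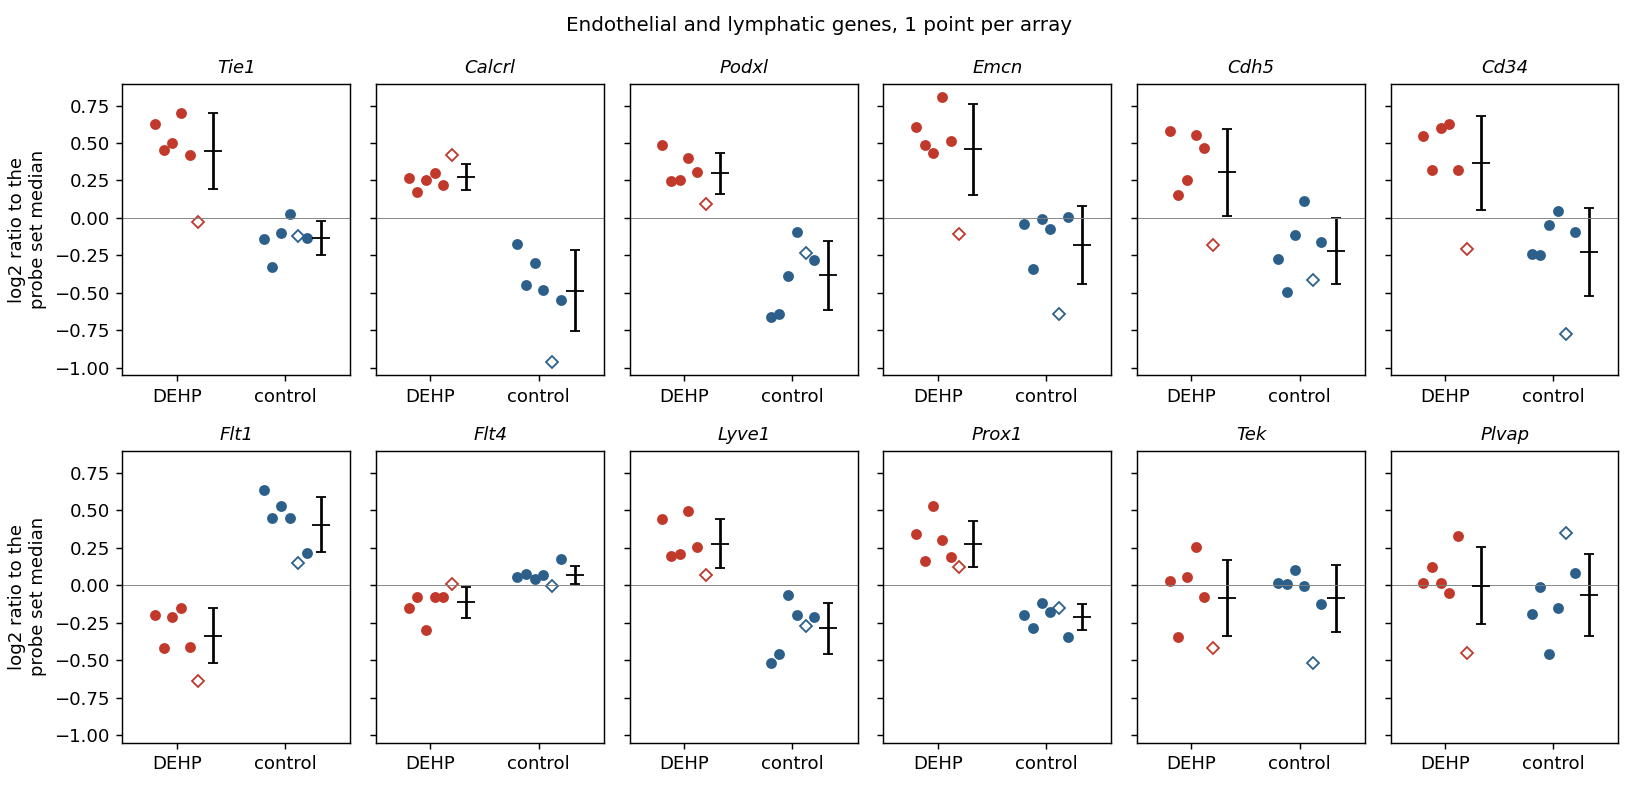
Log2 ratio to the probe set median for 9 pan-endothelial and 3 lymphatic genes, 1 point per array, with DEHP left of control and bars for the mean and SD of each group (n = 6); the open diamonds are DEHP replicate 6 and control replicate 5. For Tie1, Emcn, Cdh5 and Cd34 the DEHP replicate 6 diamond falls among the controls, for Calcrl (0.42) it is the highest DEHP value, and for Tek and Plvap the groups overlap over most of their ranges.

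The windows before Tie1, Emcn and Flt1 are shown because 2 of these endothelial genes rose and 1 fell. They are the 250 bases upstream of the RefSeq gene start in GRCr8, in the direction of the gene: Tie1 at chr5:137304982-137305231 on the minus strand, Emcn at chr2:228564289-228564538 on the plus strand and Flt1 at chr12:12333180-12333429 on the plus strand. Capitals mark AGGAAG on either strand, a sequence with the GGAA core that ETS factors such as Erg and Fli1 recognise.
Tie1: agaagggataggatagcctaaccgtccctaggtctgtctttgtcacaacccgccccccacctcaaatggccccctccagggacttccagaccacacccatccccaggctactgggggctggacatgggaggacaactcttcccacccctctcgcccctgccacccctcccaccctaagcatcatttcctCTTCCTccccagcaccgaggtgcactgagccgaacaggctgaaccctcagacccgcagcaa
Emcn: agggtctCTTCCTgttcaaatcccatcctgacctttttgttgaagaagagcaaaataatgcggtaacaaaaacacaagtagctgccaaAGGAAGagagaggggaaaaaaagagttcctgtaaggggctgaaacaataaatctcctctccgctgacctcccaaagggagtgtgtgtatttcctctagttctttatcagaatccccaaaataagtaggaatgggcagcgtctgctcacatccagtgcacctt
Flt1: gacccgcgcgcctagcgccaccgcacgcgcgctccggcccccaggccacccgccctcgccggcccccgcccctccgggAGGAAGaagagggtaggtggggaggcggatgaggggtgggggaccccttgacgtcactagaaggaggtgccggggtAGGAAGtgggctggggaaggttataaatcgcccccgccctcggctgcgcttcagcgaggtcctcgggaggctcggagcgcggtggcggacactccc
AGGAAG occurred 1 time before Tie1 and 2 times each before Emcn and Flt1, so the rising and the falling genes shared it. It was in 10 of the 18 windows, 5 of the 10 that rose, 2 of the 3 that fell and 3 of the 5 that did not pass, beside 29.5% of all windows. The TATAAA box was in the windows of Flt1 and Plvap, beside 12.9% of all.

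The 3 lymphatic genes all passed, 2 higher and 1 lower. Lyve1, the hyaluronan receptor of lymphatic endothelium that some tissue macrophages carry too, had log2 ratios of 0.07 to 0.50 with a median of 0.23 in DEHP cultures, and −0.52 to −0.07 with a median of −0.24 in controls. Prox1 encodes the homeobox factor that sets lymphatic identity and is also active in heart muscle cells. Its log2 ratios were 0.12 to 0.53 with a median of 0.25 in DEHP cultures, and −0.35 to −0.12 with a median of −0.19 in controls. In both genes the groups did not overlap, and the log2 folds were 0.57 ± 0.09 for Lyve1 and 0.49 ± 0.07 for Prox1 (limma adjusted p = 0.000572 and 0.000228).

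Flt4 encodes the receptor for VEGF-C. It had log2 ratios of −0.30 to 0.01 with a median of −0.08 in DEHP cultures, against −0.01 to 0.17 with a median of 0.06 in controls. The groups met at DEHP replicate 6, the highest DEHP array, and control replicate 5, the lowest control. The fall was small, 1.13-fold (log2 fold −0.18 ± 0.05, limma adjusted p = 0.0242), and did not pass without control replicate 6 (adjusted p = 0.0563) or without DEHP replicate 1 (adjusted p = 0.0559). Vegfc and Flt4, a ligand and its receptor, were thus both lower under DEHP, while Lyve1 and Prox1 were higher. Of the 8 further lymphatic genes described below, 0 passed, and their median log2 fold was −0.10.

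The counts of each class stand beside 14.3% higher and 10.1% lower over all named probe sets, or 13.8% and 9.71% without DEHP replicate 6. The 20 pan-endothelial genes had 8 rises, 1 fall and 11 that did not pass, with log2 folds from −0.74 to 0.76 and a median of 0.26. The 3 lymphatic genes had a median of 0.49, and the 6 ligands, with 3 rises, 1 fall and 2 that did not pass, a median of 0.29. Without DEHP replicate 6 the pan-endothelial genes had 10 rises and 1 fall with a median of 0.31, and the ligands 3 rises and 2 falls with a median of 0.32. The median size of the log2 fold regardless of sign was 0.30 for the pan-endothelial genes and 0.47 for the ligands, against 0.11 for all named probe sets.

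Arrays of a group differed in where they stood. DEHP replicate 6 was the lowest of the 6 DEHP arrays in 18 of the 20 pan-endothelial genes and in 23 of all 29, whereas it was the lowest in 27.4% of the named probe sets. The exceptions among the pan-endothelial genes were Calcrl and Ramp2. DEHP replicate 4 was the highest DEHP array in 10 of the 20, beside 13.7% of the named probe sets, and control replicate 4 the highest control in 9, beside 7.83%. The mean log2 ratio of the 20 genes was −0.21 on DEHP replicate 6, within the range of −0.23 to 0.02 in controls, and 0.10 to 0.30 on the other DEHP arrays. The mean of the 6 ligands overlapped between groups, at 0.00 to 0.12 in DEHP cultures and −0.20 to 0.04 in controls.

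**Figure D4:**
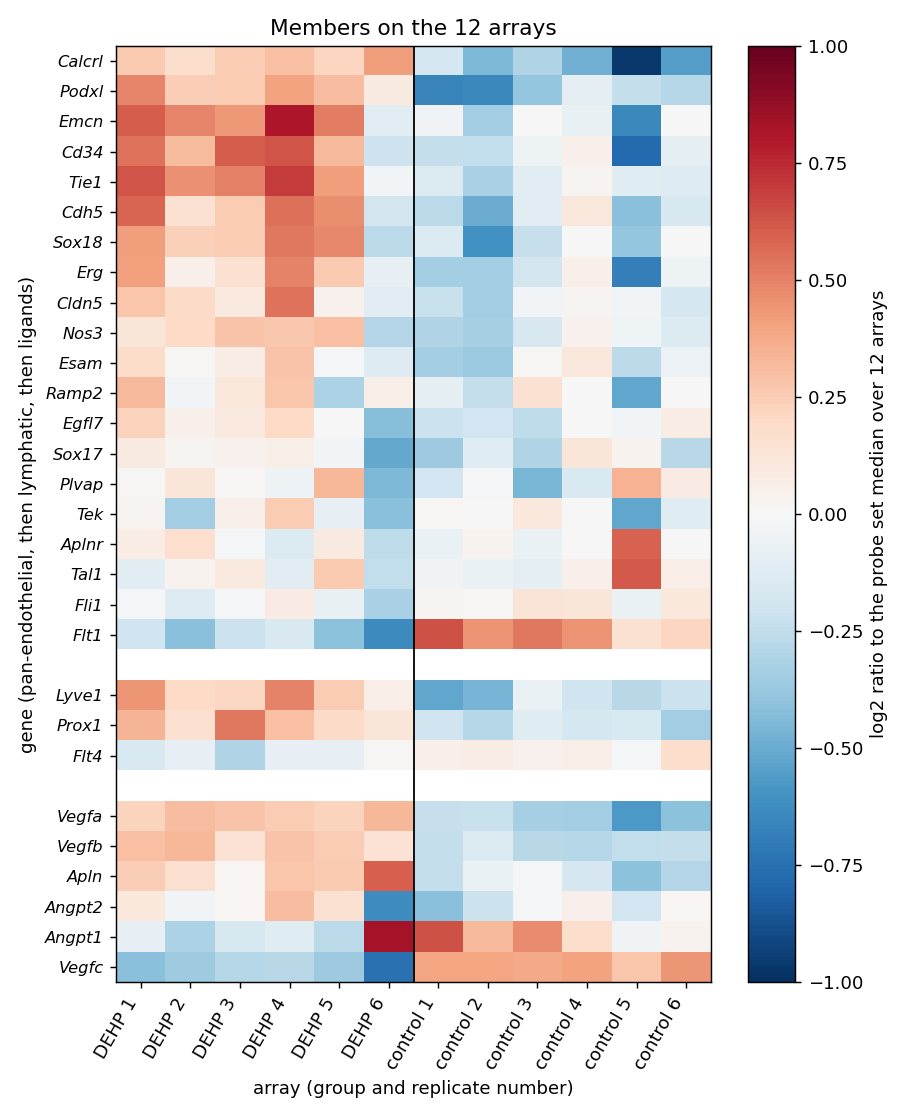
Log2 ratio to the probe set median over the 12 arrays for each measured gene (rows, in the order of the fold change within each block) on each array (columns, DEHP left and control right), with the colour scale ending at −1 and 1. The DEHP replicate 6 column is blue through most of the pan-endothelial block while the Vegfa, Vegfb and Vegfc rows keep one colour across each group.

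Markers of other cells were read on the same arrays, and their counts stand beside 14.3% higher and 10.1% lower over all named probe sets. Of 12 measured mural cell markers, genes of pericytes and vascular smooth muscle, 1 rose and 8 fell, and their mean log2 ratio was −0.77 to −0.22 in DEHP cultures and 0.24 to 0.37 in controls, lowest on DEHP replicate 6. Cnn1 (−3.49 ± 0.13), Myh11 (−1.68 ± 0.10) and Tagln (−1.25 ± 0.11) fell, and Kcnj8, a potassium channel subunit of pericytes and heart muscle, rose (1.01 ± 0.12; limma adjusted p at most 6.71e-05 for these 4). Of 14 blood cell and platelet markers, 3 rose and 2 fell, close to those background shares, with a mean of −0.05 to 0.09 in DEHP cultures and −0.10 to 0.03 in controls. The macrophage receptor gene Csf1r fell (−0.41 ± 0.06), and the leukocyte genes Itgam (0.53 ± 0.09) and Cd53 (0.39 ± 0.08) rose, while Aif1 fell (−0.19 ± 0.04). Adjusted p was at most 0.00482 for these 4.

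Of 14 fibroblast and mesothelial markers, 7 rose and 6 fell, with a mean of −0.24 to −0.01 in DEHP cultures and 0.02 to 0.10 in controls. The −0.24 was that of DEHP replicate 6, and the other DEHP arrays were at −0.08 to −0.01. Pdgfra (0.90 ± 0.07) and Postn (0.47 ± 0.04) rose, and Thy1 (−1.25 ± 0.14) and Mfap5 (−1.83 ± 0.09) fell. Of 16 cardiomyocyte markers, 4 rose and 6 fell, and the 4 became 2 without control replicate 4. Without DEHP replicate 6, 5 of these markers rose and 8 fell, beside 13.8% and 9.71% of the named probe sets. Their mean was −0.39 on DEHP replicate 6, against −0.03 to 0.17 on the other DEHP arrays and −0.09 to 0.12 in controls. Myh6 (1.67 ± 0.12) and Ryr2 (1.13 ± 0.10) rose, and Myl7 (−0.89 ± 0.11) and Nppa (−0.80 ± 0.04) fell. The part of these shifts in the endothelial values was not tested.

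In a wider list of endothelial genes, 31 were measured, with 11 rises, 3 falls and 17 that missed the threshold, beside 14.3% higher and 10.1% lower over all named probe sets. The median log2 fold of the 31 was 0.15, and without DEHP replicate 6 there were 14 rises and 4 falls, beside 13.8% and 9.71%. By smallest p these were Tspan7 (−0.99 ± 0.09), Tmem204 (−1.41 ± 0.14), Palmd (−1.35 ± 0.15) and the fatty acid carrier Cd36 (1.20 ± 0.16), which heart muscle also makes (limma adjusted p at most 0.000123). The 3 falls are larger than that of Flt1, the only pan-endothelial member to fall. Of 8 further lymphatic genes 0 passed (limma), and Pdpn alone had an unadjusted p under 0.05. Without DEHP replicate 6, Nrp2, a co-receptor of VEGF-C, was lower; with array weights 1 of the 8 was higher, and without both control replicate 5 and DEHP replicate 6, 1 was higher and 2 were lower. Those with the smallest p were Pdpn (−0.10 ± 0.05, adjusted p = 0.169), Adamts3 (0.31 ± 0.16, adjusted p = 0.233), Nr2f2 (−0.19 ± 0.11, adjusted p = 0.275) and Fgl2 (−0.45 ± 0.26, adjusted p = 0.286).

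Partners of the VEGF, angiopoietin, apelin and adrenomedullin pathways went both ways, with 5 rises, 3 falls and 12 that did not pass among 20 measured, beside the same 14.3% and 10.1%. Plcg1, the phospholipase that relays VEGF receptor signals, rose (0.48 ± 0.07), as did decorin, Dcn (0.41 ± 0.05), a matrix proteoglycan. Ramp3, an alternative partner of Calcrl, fell (−0.75 ± 0.07), and so did Adm2, a peptide of the adrenomedullin family (−0.40 ± 0.05; limma adjusted p at most 0.000249 for these 4). Ramp1, chosen after its values were seen, is the partner with which Calcrl forms the receptor for calcitonin gene-related peptide, and it fell too (−0.80 ± 0.12, adjusted p = 0.000406). Angptl4, chosen likewise, had the largest log2 fold of the 20, 1.62 ± 0.30 (adjusted p = 0.00194). It encodes a secreted inhibitor of lipoprotein lipase and is a known PPAR target. On DEHP replicate 6 Angptl4 was at 2.54, against 0.43 to 1.05 on the other DEHP arrays. Without that array its log2 fold was 1.31 ± 0.12 (limma adjusted p = 7.33e-06). Adm, adrenomedullin itself, was at 0.20 ± 0.13 (adjusted p = 0.36), so that in this receptor system Calcrl rose while its partners Ramp1 and Ramp3 fell and Ramp2 did not pass.

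Vegfa, Apln and Angpt2 are known to respond to low oxygen, and 20 other genes raised by hypoxia were measured. Of these 4 rose, 4 fell and 12 did not pass, beside 14.3% higher and 10.1% lower over all named probe sets. Their median log2 fold was 0.08. With single arrays left out, 3 to 6 were higher and 4 to 5 lower. Their mean log2 ratio was −0.03 to 0.11 in DEHP cultures, within the −0.25 to 0.21 of controls, with −0.25 on control replicate 5. The glucose transporter Slc2a1 rose (0.52 ± 0.07), and Plod2 (−0.54 ± 0.07) and P4ha1 (−0.39 ± 0.07), which modify collagen, and the lipoprotein receptor Vldlr (−0.69 ± 0.11) fell (limma adjusted p at most 0.00104). Hif1a (0.49 ± 0.08) and Epas1 (0.39 ± 0.08), genes of oxygen-regulated transcription factors among the pathway partners, rose as well (limma adjusted p = 0.000833 and 0.00586). They too were chosen after their values were seen.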

How the data were processed

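RNA of 6 DEHP and 6 control cultures was measured on 1 Affymetrix array each. RMA is the tool named in the submitters' processing notes, without its version. Values were deposited as linear ratios, and for all 27342 probe sets the median log2 ratio over the 12 arrays lay within 1e-04 of 0. Probe brightness is not held, so no filter on dim probe sets could be run, and the number of arrays sets the precision.

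Log2 ratios were used without further normalization. Of the probe sets, 15097 had 1 gene symbol in the platform annotation, 323 several and 11922 none. Identifiers of the 29 measured genes matched their symbols in the RefSeq gene table of GRCr8. DEHP was compared with control by limma 3.58.1 in R 4.3.3 (lmFit, eBayes, two-sided, Benjamini-Hochberg over all probe sets, adjusted p under 0.05), and the fit was checked on simulated data. Errors after ± are SE of the log2 fold. Genes of other lists counted by their lowest-numbered probe set, and up to 4 with the smallest p were named for each list. The members and lists were chosen with earlier results of these data known. Promoter sequences were read from the RefSeq table of GRCr8. Alternatives were quantile normalization, median centring, array weights, robust eBayes, the replicate number as a block, fewer probe sets tested, an adjusted p under 0.01, the mean of a gene's probe sets, each array left out, and, chosen after seeing the data, DEHP replicate 6 and control replicate 5 left out together.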

Additional observations from a re-analysis of the deposited data

Results flagged for a closer look

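In each group of 6 arrays a value was looked at again when its gap to the nearest other value took up more than 0.625 of the group's range (Dixon's test), which chance alone gives in about 1 of 20 groups. Of 58 groups, 14 had such a value, 8 of them on DEHP replicate 6 and 5 on control replicate 5.

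DEHP replicate 6 was low for Sox17 (−0.51, the others from −0.03 to 0.09), Egfl7 (−0.43, from −0.01 to 0.23), Nos3 (−0.30, from 0.12 to 0.30), Sox18 (−0.27, from 0.24 to 0.53), Cd34 (−0.21, from 0.32 to 0.63), Angpt2 (−0.63, from −0.03 to 0.31) and Vegfc (−0.75, from −0.42 to −0.28). It was high for Angpt1, at 0.83 where the other DEHP arrays lay between −0.32 and −0.08.

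Control replicate 5 was high for Aplnr (0.59, the other controls from −0.07 to 0.04) and Tal1 (0.61, from −0.09 to 0.07). It was low for Tek (−0.52, from −0.12 to 0.10), Cd34 (−0.78, from −0.25 to 0.05) and Vegfc (0.28, from 0.38 to 0.44). The last of the 14 was control replicate 2 for Vegfb, at −0.14 where the other controls lay between −0.29 and −0.24.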

How the results depend on the processing

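Of the 29 measured genes, 16 kept their direction and their side of the threshold under each of the 21 alternatives. Among them Vegfa, Vegfb, Vegfc, Apln, Flt1, Tie1, Calcrl, Podxl, Emcn, Lyve1 and Prox1 always passed. Esam, Fli1, Sox17, Ramp2 and Angpt2 never did. Cdh5, Cd34 and Erg lost their call only at an adjusted p under 0.01, and Sox18 and Flt4 also without some single arrays. Leaving out each array in turn gave 12 to 15 higher and 2 to 4 lower genes in all, 7 to 10 higher and 1 lower pan-endothelial genes, 2 higher and 0 to 1 lower lymphatic genes, and 3 higher and 1 to 2 lower ligands. The ligands lower were 2 without DEHP replicate 6, with array weights (Angpt1, −0.36, adjusted p = 0.045) and without both outlying arrays, DEHP replicate 6 and control replicate 5 (−0.52, adjusted p = 0.00265). At an adjusted p under 0.01, 4 pan-endothelial genes were higher and 0 lymphatic genes lower, and 9 genes were higher and 2 lower in all. Cldn5 and Nos3 passed under 8 alternatives each, and Egfl7 without both outlying arrays (adjusted p = 0.0393). Directions changed in genes that did not pass: Tek, at 0.00, was −0.026 after quantile normalization, −0.018 without both outlying arrays and −0.085 to 0.068 with single arrays left out. Plvap was −0.019 to 0.15 with single arrays left out and 0.23 without both outlying arrays. Aplnr was −0.13 to 0.0098 with single arrays left out and 0.059 without both outlying arrays, and Tal1 was −0.16 to 0.0036 and 0.051 in those settings. Among the wider lists, quantile normalization gave 5 falls in place of 3 among the further endothelial genes. The cause of these shifts was not tested, apart from the stricter threshold and the fewer arrays themselves.

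Replicate numbers were shared between the groups, but nothing in the labels says what a number stands for. Deviations of same-numbered arrays correlated by 0.0717 to 0.772, with 5 of 6 numbers above 0.1, and 2 of 6 DEHP arrays correlated best with the control of their own number. With the replicate block, 15 of the 29 genes were higher and 3 lower, against 13 and 3 without it. The block took the log2 fold of Cldn5 (adjusted p = 0.0282) and the log2 fold of Nos3 (adjusted p = 0.0341) past the threshold. Brightness over background is not held in the values, so what dim probe sets could show cannot be judged.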

Other observations

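Of the 31 further endothelial genes, 17 did not pass and 3 fell, Tmem204 (−1.41), Palmd (−1.35) and Tspan7 (−0.99). The 8 genes named next are among the 11 that rose and were chosen after their values were seen. Cyyr1 (0.63 ± 0.10), Adgrl4 (0.55 ± 0.13), Adgrf5 (0.81 ± 0.20), Cd93 (0.48 ± 0.12), Robo4, a guidance receptor of vessels (0.33 ± 0.08), and Dll4, the Notch ligand of sprouting tips (0.39 ± 0.12), rose under DEHP, with limma adjusted p from 0.000406 to 0.0413. Lmo2 (0.49 ± 0.10) and the prostaglandin carrier Slco2a1 (0.78 ± 0.12) rose as well, and on DEHP replicate 6 they were at 0.64 and 0.64, where Adgrl4, Adgrf5, Cd93, Robo4 and Dll4 were at −0.11, −0.03, −0.16, −0.07 and −0.31.

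On that array some genes of the same lists stood far from their values on the other DEHP arrays. Car4, an endothelial carbonic anhydrase, was at 2.80, and its log2 fold of 0.94 ± 0.40 (limma adjusted p = 0.142) was 0.51 without it (adjusted p = 0.00549). Selp, which encodes the adhesion molecule P-selectin, was at 0.94 there, and its log2 fold of −0.61 ± 0.26 (adjusted p = 0.138) was −0.89 without it (adjusted p = 7.49e-06). Vegfd, the other VEGF of lymphatic vessels, was at −1.34 there, and its log2 fold was −0.34 ± 0.19 with it (adjusted p = 0.28) and −0.13 without it (adjusted p = 0.0757).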
